A study of Mus musculus with 9 samples.

Results

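The 8 immunoglobulin heavy chain constant genes of the mouse, *Ighm*, *Ighd*, *Ighg3*, *Ighg1*, *Ighg2b*, *Ighg2c*, *Ighe* and *Igha*, were examined in splenic B cells, together with their secreted and membrane transcripts. They were taken by gene name from 22596 genes with an entry in the reference on which the authors quantified the reads, and each has 2 annotated transcripts, 16 in all. One RNA-sequencing library was made from each of 9 mice of strain C57/BL6NTac. The Eµ-MTCP1 group held 3 mice carrying human *MTCP1* (Z2551, Z2606 and Z2641, all of founder line Z36), and the Eµ-TCL1 group held 3 mice carrying human *TCL1* (B4376, B4437 and C1594). The third group held 3 wildtype mice without a transgene (Z2754, Z2755 and Z2785). The human *MTCP1* is driven by a VH promoter and the IgH Eµ enhancer, which restricts it to B cells, so the Eµ element of the heavy chain locus itself is also part of the transgene. The transgenic mice had a leukemia resembling chronic lymphocytic leukemia (CLL), and their ages are not given in the sources used here. B cells of all 9 mice were obtained with a kit that removes other cells (EasySep pan-B isolation).

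In a resting B cell, *Ighm* and *Ighd* lie closest to the rearranged variable segment and are spliced from the same primary transcript, so that the cell can carry IgM and IgD at once. Class switch recombination deletes the DNA between the variable segment and a gene further along the locus, and the cell then makes IgG, IgE or IgA with the same variable segment. Each constant gene also gives 2 kinds of messenger RNA by alternative processing of its end: the membrane form encodes the anchor of the B-cell receptor, and the secreted form encodes antibody. Unswitched B cells can transcribe a constant gene from its own promoter (germline transcription), and reads counted on constant exons do not tell such RNA from that of a switched chain. CLL-like leukemia of Eµ-TCL1 mice is known as an expansion of CD5+ B cells that carry IgM.

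The genes lie on the minus strand of chromosome 12 (build GRCm38), in the order in which they are named above. *Ighm* is at chr12:113418558-113422730 and *Ighd* at chr12:113406604-113416324. *Ighg3* is at chr12:113356224-113361232, *Ighg1* at chr12:113325240-113330523, *Ighg2b* at chr12:113302965-113307933 and *Ighg2c* at chr12:113285325-113288932. *Ighe* is at chr12:113269260-113273248, and *Igha*, the last, at chr12:113254830-113260236, starting 162.5 kb from the start of *Ighm*. The coding sequences of the 2 forms of a gene are the same up to the last constant domain and differ at their end, so only reads at the end tell the forms apart. These ends are shown for *Ighm*, *Igha* and *Ighg3*, on whose forms the results below turn. Each line gives the last 30 coding bases common to both forms in lower case and the bases particular to the form, up to and including the stop codon, in capitals (GENCODE M21).
Ighm membrane: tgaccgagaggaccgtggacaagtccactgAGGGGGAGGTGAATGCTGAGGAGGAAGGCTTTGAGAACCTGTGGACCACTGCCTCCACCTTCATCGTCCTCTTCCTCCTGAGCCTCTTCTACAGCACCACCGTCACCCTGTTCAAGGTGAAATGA
Ighm secreted: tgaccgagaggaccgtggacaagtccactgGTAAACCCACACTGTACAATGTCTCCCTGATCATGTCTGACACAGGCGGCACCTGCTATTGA
Igha membrane: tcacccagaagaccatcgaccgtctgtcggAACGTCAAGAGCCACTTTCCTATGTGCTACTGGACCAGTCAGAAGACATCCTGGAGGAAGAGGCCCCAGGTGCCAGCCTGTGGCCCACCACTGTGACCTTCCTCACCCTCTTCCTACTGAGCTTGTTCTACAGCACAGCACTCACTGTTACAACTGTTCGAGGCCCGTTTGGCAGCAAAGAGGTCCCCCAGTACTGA
Igha secreted: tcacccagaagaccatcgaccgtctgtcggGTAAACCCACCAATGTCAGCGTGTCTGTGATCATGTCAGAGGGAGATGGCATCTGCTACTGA
Ighg3 membrane: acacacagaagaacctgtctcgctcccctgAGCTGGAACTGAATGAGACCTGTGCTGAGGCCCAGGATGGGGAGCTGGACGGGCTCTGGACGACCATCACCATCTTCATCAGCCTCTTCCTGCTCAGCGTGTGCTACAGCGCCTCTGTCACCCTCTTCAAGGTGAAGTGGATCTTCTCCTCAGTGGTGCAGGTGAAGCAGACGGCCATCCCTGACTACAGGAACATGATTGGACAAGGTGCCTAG
Ighg3 secreted: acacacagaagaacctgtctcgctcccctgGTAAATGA
The membrane ends hold 125 particular bases in *Ighm*, 197 in *Igha* and 215 in *Ighg3*. The secreted end holds 62 bases in *Ighm* and in *Igha* but 8 in *Ighg3*, and 7 in *Ighg1*, *Ighg2b* and *Ighg2c*, so the secreted form of an IgG gene is recognised mainly by the lack of membrane reads. The membrane ends of *Ighg2b* and *Ighg2c* share 208 of 214 bases (97.2%), and those of *Ighg1* and *Ighg2c* 186 of 214 (86.9%). Reads of these near-identical copies could be split between genes by the quantification, and values of single IgG genes at a few reads are uncertain for that reason.

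Between 6464089 and 8053017 reads per library were assigned on the reference with human sequences, of which 136193 to 452051 fell on the 8 genes. At that depth 3 reads, taken as the floor, correspond to 0.325 to 0.494 CPM (counts scaled to a common library total, here and below after TMM normalization). The libraries matched their labels: the authors' normalized log2 values of human *MTCP1* were 11.1 to 12.3 in the Eµ-MTCP1 mice and at most 6.19 in the others, and those of *TCL1A* were 14.9 to 15.6 in the Eµ-TCL1 mice and at most 6.96 in the others. Pan-B markers (6 of 6 in the reference) summed to 6971 to 10598 CPM in all 9 mice, and none of them passed the test against wildtype in either model. The 8 T-cell markers summed to 3.57 to 9.35 CPM in wildtype (*Cd8a* at 0 in all 3), 5.24 to 24.4 CPM in the Eµ-MTCP1 and 9.78 to 56.9 CPM in the Eµ-TCL1 group. The 8 myeloid markers summed to 811 to 1745, 533 to 1170.2 and 149 to 1624 CPM in the same order, and the 6 erythroid markers to 36.6 to 172, 26.2 to 315 and 22.3 to 69.0 CPM. Enough reads for the test were left for 3 of the 8 T-cell, all 8 myeloid and 5 of the 6 erythroid markers, of which none passed against wildtype, and the part of these cells in the results was not tested. The library of wildtype mouse Z2755 was on another lane than the other 8. Without it the calls below for whole genes were unchanged for the 8 genes except that of *Ighe*, given there. The call on the secreted share of *Igha*, also given below, was lost, and the tests of single transcripts were not repeated without it.

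The level of each gene per length, in TPM (transcript abundance scaled to a common total), was compared first within groups. In wildtype B cells *Ighm* was the highest, with 6759, 6606 and 8639 TPM in Z2754, Z2755 and Z2785 (mean 7335 ± 1132, SD, n = 3). *Ighg2c* followed at 1343 ± 465 TPM, *Igha* at 894 ± 273, *Ighg2b* at 774 ± 357, *Ighd* at 654 ± 93.0 and *Ighg3* at 484 ± 235 (SD, n = 3). The ranges of neighbours in this order overlapped from *Ighg2c* down to *Ighg3*, although every *Ighg2c* value lay above every *Ighd* and *Ighg3* value. *Ighm* above them, and *Ighg1* (134 ± 108 TPM) and *Ighe* (0.883 ± 0.491 TPM) below them, did not overlap their neighbours. In Eµ-MTCP1 mice *Ighm* stood at 12992 ± 4304 TPM, 144 times the next gene, *Ighg3* (90.2 ± 126), which was followed by *Ighd* (72.9 ± 38.0) and *Igha* (29.9 ± 15.7). The place of *Ighg3* rests on Z2606, at 234 TPM. In Z2551 and Z2641 it was at 34.5 and 1.73 TPM, below *Ighd* at 70.2 and 36.3 TPM. In Eµ-TCL1 mice *Ighm* stood at 10389 ± 4735 TPM, 209.9 times *Ighd* (49.5 ± 22.5), with *Ighg3* at 49.1 ± 12.5 and *Igha* at 13.5 ± 4.82. *Ighd* and *Ighg3* overlapped in both models. The levels are means of bulk RNA, in which fewer cells of an isotype and less RNA per cell cannot be told apart.

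**Figure D1:**
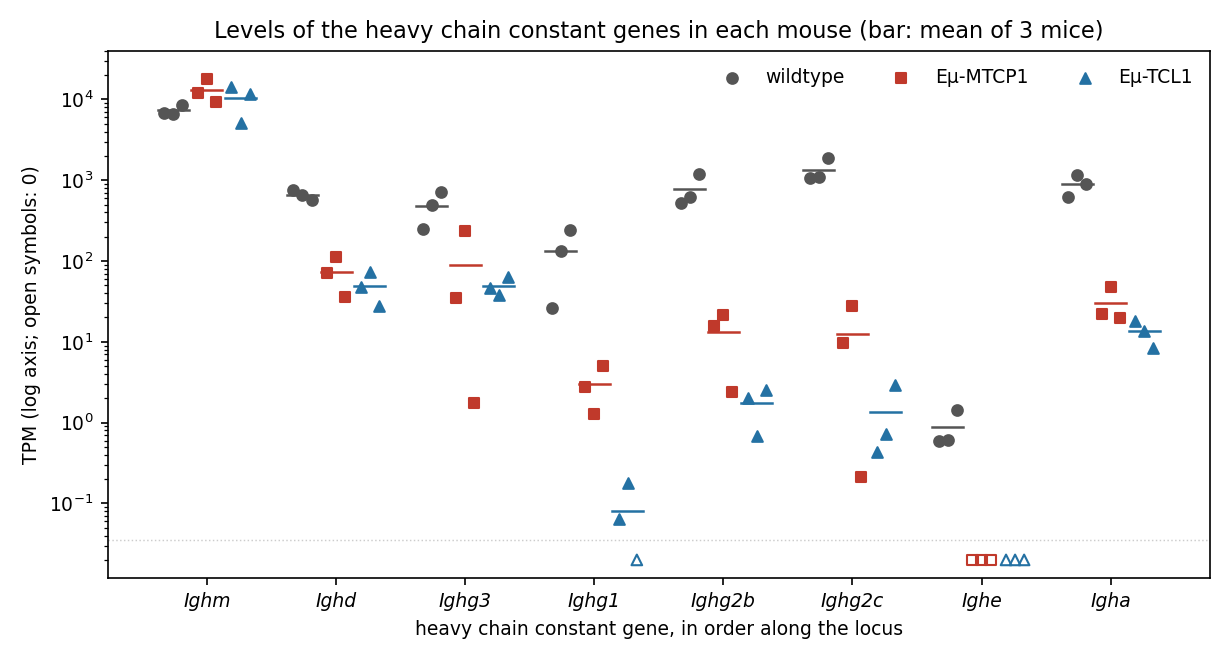
TPM of each constant gene on a log axis, 1 point per mouse and a bar for the mean of 3 mice, with genes in their order along the locus and open symbols at the bottom for 0. *Ighm* stands above every other gene in all 9 mice, and the leukemias lie below wildtype for *Ighd*, *Ighg1*, *Ighg2b*, *Ighg2c*, *Ighe* (0 in all 6) and *Igha*, while *Ighg3* of 1 Eµ-MTCP1 mouse nearly reaches the lowest wildtype mouse.

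Next, each model was compared with wildtype, the question being which isotypes had lower or higher RNA levels in the leukemic samples. Of the 8 genes, 6 were lower in Eµ-MTCP1 and 6 were lower in Eµ-TCL1 mice, the same 6 genes: *Ighd*, *Ighg1*, *Ighg2b*, *Ighg2c*, *Ighe* and *Igha*. None was higher by the test, and *Ighe* had enough reads for the test in wildtype alone, so it could only be found lower. Among all 11247 genes tested, 3.94% were called lower and 5.43% higher in Eµ-MTCP1 (9.37% in either direction), and 4.08% lower and 5.07% higher in Eµ-TCL1 (9.15% in either direction). Counts of all genes called were 443 lower and 611 higher in Eµ-MTCP1 and 459 lower and 570 higher in Eµ-TCL1, or 731 and 397, and 587 and 448, when libraries were scaled by their size alone. The 6 genes were called lower with that scaling too. These are quasi-likelihood tests of edgeR with Benjamini-Hochberg adjustment over all genes, called at an adjusted p under 0.05, and both comparisons share the wildtype mice. *Ighm* and *Ighg3* did not pass in either model.

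*Ighm*, the heavy chain of IgM, was measured at 17194, 15483 and 26801 CPM in the wildtype mice Z2754, Z2755 and Z2785. It was at 40923, 63056 and 32161 CPM in the Eµ-MTCP1 mice Z2551, Z2606 and Z2641, and at 46932, 16444 and 38869 CPM in the Eµ-TCL1 mice B4376, B4437 and C1594. All Eµ-MTCP1 mice were above all wildtype mice, whereas B4437 fell within the wildtype range. The log2 fold change was 1.19 ± 0.42 (SE) in Eµ-MTCP1 (edgeR adjusted p = 0.108) and 0.78 ± 0.41 in Eµ-TCL1 (adjusted p = 0.274). With DESeq2 in place of edgeR the first of these passed (log2 fold change 1.19, adjusted p = 0.0195).

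*Ighd*, the heavy chain of IgD, which marks mature naive B cells, was at 1077, 826 and 931 CPM in Z2754, Z2755 and Z2785. The Eµ-MTCP1 mice Z2551, Z2606 and Z2641 had 126, 198 and 66.2 CPM, and the Eµ-TCL1 mice B4376, B4437 and C1594 had 82.8, 126 and 48.1 CPM. No leukemia reached the lowest wildtype value. The log2 fold change was -2.86 ± 0.43 in Eµ-MTCP1 (edgeR adjusted p = 0.00277) and -3.46 ± 0.45 in Eµ-TCL1 (adjusted p = 0.00109), 7.27-fold and 11-fold lower by the group means.

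*Ighg3*, the first IgG gene after *Ighd*, varied widely among the Eµ-MTCP1 mice. It was at 415, 775 and 1498 CPM in Z2754, Z2755 and Z2785. The 3 Eµ-MTCP1 mice Z2551, Z2606 and Z2641 had 80.2, 539 and 4.12 CPM, so Z2606 was within the wildtype range while Z2641 was far below every other mouse. The Eµ-TCL1 mice B4376, B4437 and C1594 had 113, 85 and 139.5 CPM, all below wildtype. The log2 fold changes of -2.11 ± 1.12 (edgeR adjusted p = 0.270) and -2.99 ± 1.16 (adjusted p = 0.140) did not pass. Without Eµ-MTCP1 mouse Z2606 the first was -4.43 ± 1.06 with an adjusted p of 0.0331. The second passed with an adjusted p of 0.00405 when the wildtype and Eµ-TCL1 libraries alone were fitted (log2 fold change -3.01 ± 0.45), and with an adjusted p of 0.0197 without Eµ-MTCP1 mouse Z2641. Without wildtype mouse Z2785 they were -1.52 and -2.40.

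*Ighg1*, whose product is the main IgG of T-cell dependent responses driven by IL-4, was at 44.5, 211 and 503 CPM in the wildtype mice. Reads of *Ighg1* numbered 39, 20 and 68 in the Eµ-MTCP1 mice Z2551, Z2606 and Z2641 and 1, 3 and 0 in the Eµ-TCL1 mice B4376, B4437 and C1594. The log2 fold change against wildtype was -5.22 ± 0.84 in Eµ-MTCP1 (edgeR adjusted p = 0.00378). In Eµ-TCL1 the edgeR adjusted p was 0.000645, and 4 reads in all stood against 5639 in wildtype. The ratio was 1328 after scaling by the normalized library sizes, with an exact Poisson 95% interval of 519 to 4873. That interval covers counting error only, with reads taken as independent. On the standard reference B4437 had 10 reads, all of the membrane form, and the fitted log2 fold change went from -10.35 to -9.29 there, to -8.95 in the whole counts and to -11.52 without B4437, and was called in each. Without wildtype mouse Z2785 it was -9.37, and that of Eµ-MTCP1 was -4.24.

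*Ighg2b* and *Ighg2c*, which encode the IgG2 classes of this strain, were at 885 to 2546 and 1824 to 4137 CPM in wildtype mice. *Ighg2b* was at 36.2, 51.0 and 5.60 CPM in Z2551, Z2606 and Z2641, and at 4.42, 1.59 and 5.59 CPM in B4376, B4437 and C1594. *Ighg2c* was at 23.2, 65.7 and 0.494 CPM in the Eµ-MTCP1 mice and at 0.966, 1.59 and 6.71 CPM in the Eµ-TCL1 mice, in the same order. Every leukemia was at least an order of magnitude below the lowest wildtype mouse for both genes. The log2 fold changes of *Ighg2b* were -5.58 ± 0.82 and -8.59 ± 0.95 (edgeR adjusted p = 0.00230 and 0.000520), and those of *Ighg2c* were -6.45 ± 1.27 and -9.73 ± 1.48 (adjusted p = 0.0109 and 0.00279), for Eµ-MTCP1 and Eµ-TCL1. Without Eµ-MTCP1 mouse Z2551 the call of *Ighg2c* in Eµ-MTCP1 was lost, at an adjusted p of 0.0566. The 0.494 CPM of Z2641 are 3 reads, the floor of that library, and B4376 had 7 reads. The log2 fold change of *Ighg2c* was -7.81 in Eµ-MTCP1 without Z2606 and -10.97 in Eµ-TCL1 without C1594. That of *Ighg2b* was -6.18 in Eµ-MTCP1 without Z2606, and it was -4.94 and -7.95 in the models without wildtype mouse Z2785.

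*Ighe*, the heavy chain of IgE, was near the limit of detection. It had 11, 12 and 27 reads in the wildtype mice Z2754, Z2755 and Z2785 and 0 reads in all 6 transgenic mice. Against the level that 3 reads per library would give, it was at least 4.77-fold lower in Eµ-MTCP1 and at least 5.60-fold lower in Eµ-TCL1. The edgeR adjusted p was 0.0463 and 0.0411, and each call was lost when any 1 of the 6 libraries it compares was left out (adjusted p 0.0782 to 0.133 for Eµ-MTCP1 and 0.0850 to 0.121 for Eµ-TCL1). The first was also lost without Eµ-TCL1 mouse B4437 (adjusted p 0.0501) and the second without Eµ-MTCP1 mouse Z2551 (adjusted p 0.0508). With transcript length offsets the Eµ-MTCP1 call was lost too (adjusted p 0.0541). On the standard mouse reference Z2551 had 1 read of *Ighe*, against 14 to 32 in wildtype.

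*Igha*, the heavy chain of IgA, the class of mucosal antibody, was at 921, 1715 and 1774 CPM in wildtype mice. It was at 53.4, 109.9 and 42.0 CPM in the Eµ-MTCP1 mice and at 38.2, 27.9 and 19.3 CPM in the Eµ-TCL1 mice. Groups did not overlap, and *Igha* had the smallest adjusted p of the 8 genes in both models: the log2 fold change was -4.42 ± 0.46 in Eµ-MTCP1 (edgeR adjusted p = 0.000397) and -5.69 ± 0.49 in Eµ-TCL1 (adjusted p = 0.000160). The fold of the means was 21.5 and 51.6. The log2 fold change was smaller on the standard reference, at -3.92 and -4.88, and in the authors' whole counts, at -3.68 and -4.60, and was called in all of them.

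**Figure D2:**
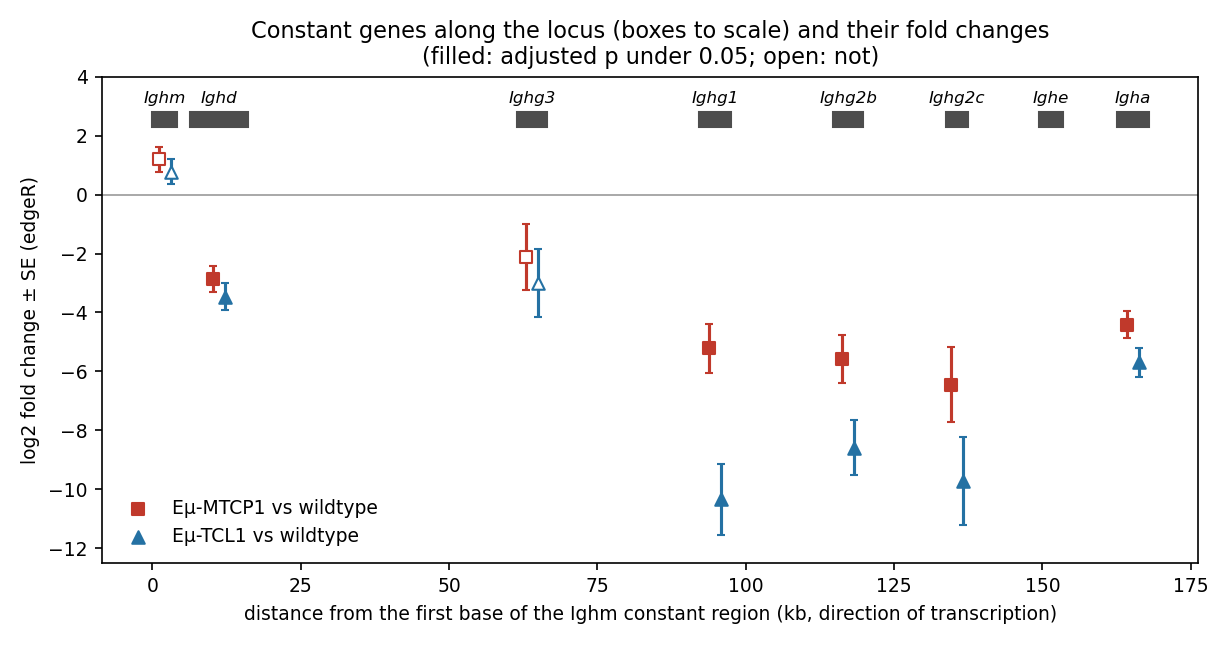
Log2 fold change against wildtype (y axis, ± SE, edgeR) at each gene's distance from the start of *Ighm* in kb (x axis), with filled symbols for an adjusted p under 0.05 and boxes for the genes to scale. *Ighm* lies above 0 and *Ighg3* below it without passing, and no fold is drawn for *Ighe*, which had 0 reads in both models.

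Eµ-TCL1 was then compared with Eµ-MTCP1 directly. None of the 8 genes passed (edgeR, smallest adjusted p = 0.397), where 0.0445% of all tested genes did, 5 of 11247. DESeq2 called 1 of them, *Ighg1* (adjusted p = 0.00608), beside 74 of all 11194 genes that it tested. The estimates of *Ighg1*, *Ighg2b*, *Ighg2c* and *Igha* were lower in Eµ-TCL1. The log2 difference was -3.01 ± 0.77 for *Ighg2b*, -3.28 ± 1.17 for *Ighg2c* and -1.26 ± 0.41 for *Igha*. That of *Ighg2c* was -1.95 without Z2606, -3.87 without Z2641 and -4.52 without C1594. The intervals of 2 SE around the difference ran from -1.24 to 0.41 for *Ighm*, from -1.42 to 0.22 for *Ighd* and from -3.06 to 1.28 for *Ighg3*, so that differences of that size between the leukemias were not excluded by the spread of these mice.

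The share of switched genes (*Ighg3*, *Ighg1*, *Ighg2b*, *Ighg2c*, *Ighe* and *Igha*) among the reads of all 8 was taken per mouse, since it does not depend on the normalization between libraries. The switched share was 18.5% in Z2754 (95% Wilson interval 18.3 to 18.7), 25.4% in Z2755 (25.2 to 25.6) and 27.4% in Z2785 (27.2 to 27.6). In the Eµ-MTCP1 mice it was 0.483% in Z2551 (0.457 to 0.511), 1.2% in Z2606 (1.17 to 1.23) and 0.196% in Z2641 (0.178 to 0.217). In the Eµ-TCL1 mice it was 0.333% in B4376 (0.314 to 0.353), 0.698% in B4437 (0.655 to 0.744) and 0.438% in C1594 (0.414 to 0.463). The intervals cover counting error only, with reads taken as independent, and were far narrower than the spread between mice. All 6 leukemias were below all wildtype mice, with a mean difference of -23.2 percentage points (exact permutation test, two-sided, 6 against 3 mice, p = 0.0119, the smallest that 84 splits allow; adjusted over 6 shares and ratios p = 0.0357). With 3 mice against 3 the smallest possible p is 0.1, which was reached for each model against wildtype, while the models differed by -0.137 percentage points (exact permutation p = 0.8).

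The switched reads that remained had another make-up than in wildtype. In wildtype mice *Ighg2c* held 32.9 to 45.3% of the switched reads, *Igha* 17 to 30.9%, *Ighg2b* 18.4 to 24.3% and *Ighg3* from just over 10 to 14.3%. In all 3 Eµ-TCL1 mice most switched reads were of *Ighg3*, 72.1 to 81.6%, followed by *Igha* at 11.3 to 24.4%, with *Ighg2c* at 0.616 to 3.92%. The Eµ-MTCP1 mice differed among themselves: *Ighg3* held 40.2% of the switched reads in Z2551, 70.2% in Z2606 and 6.49% in Z2641, where *Igha* held 66.2%. The make-up of Z2641 rests on 385 switched reads. These shares were chosen for description after their values were seen and were not tested.

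**Figure D3:**
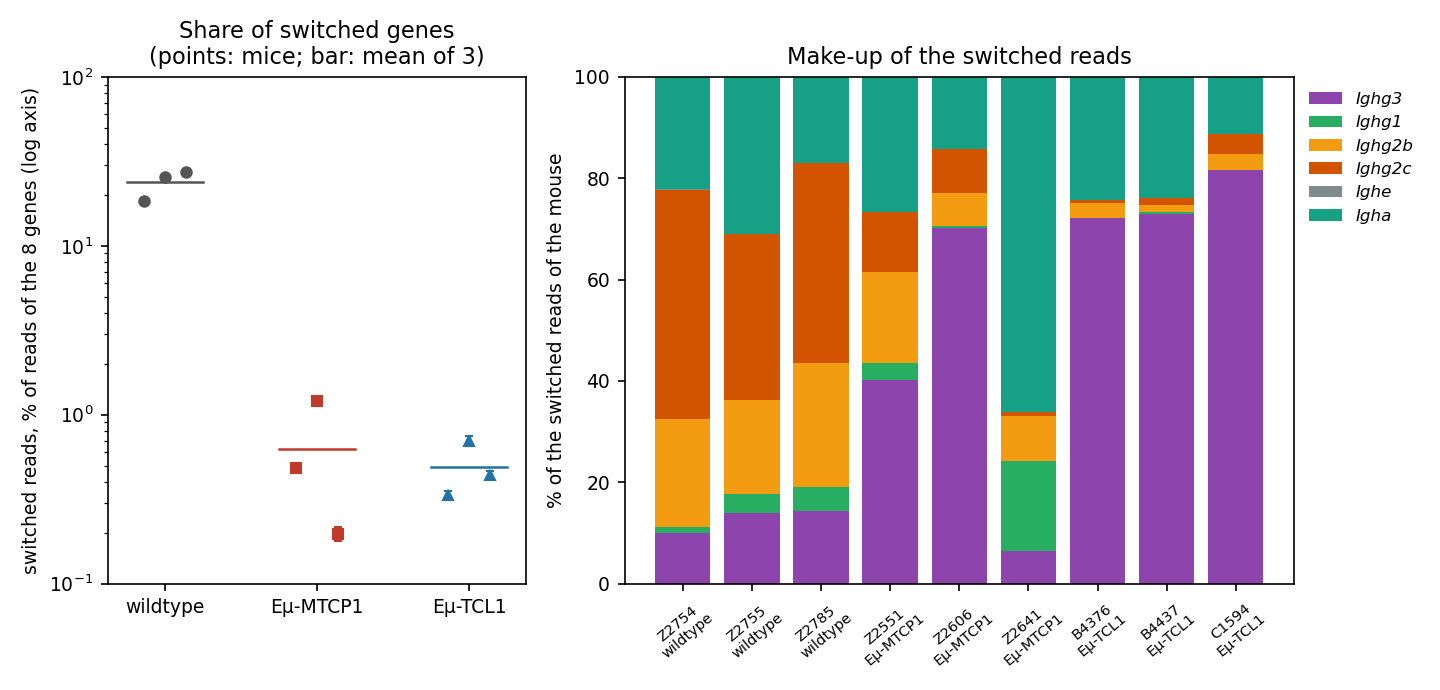
Left, switched reads as a percentage of the reads of the 8 genes on a log axis, with 1 point per mouse, its 95% Wilson interval and a bar for the mean of 3 mice; right, the percentage of each mouse's switched reads held by each switched gene. Wildtype mice lie at 18.5 to 27.4% and leukemias at 0.196 to 1.2%, and *Ighg3* fills most of the column in all Eµ-TCL1 mice and in Z2606.

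Because *Ighd* and *Ighm* come from 1 primary transcript, their ratio per length was examined. The log2 ratio of *Ighd* TPM to *Ighm* TPM was -3.17, -3.35 and -3.94 in Z2754, Z2755 and Z2785. It was -7.41, -7.30 and -8.00 in Z2551, Z2606 and Z2641, and -8.22, -6.13 and -8.72 in B4376, B4437 and C1594. B4437, the leukemia with the lowest *Ighm*, was nearest to wildtype but still more than 2 log2 units below it. The mean difference was -4.15 (17.7-fold; exact permutation p = 0.0119, adjusted p = 0.0357), and it was -4.09 for Eµ-MTCP1 and -4.21 for Eµ-TCL1 alone (exact permutation p = 0.1 for both, the smallest possible).

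Of 15 genes for the processing of heavy chain RNA, 1 passed in each model, the same gene, where 9.37% and 9.15% of all tested genes passed. *Zfp318*, a nuclear protein that B cells need to splice through to *Ighd*, was at 158, 129 and 117 CPM in Z2754, Z2755 and Z2785. It was at 17.5, 31.0 and 22.4 CPM in Z2551, Z2606 and Z2641 and at 22.1, 22.7 and 21.9 CPM in B4376, B4437 and C1594. Wildtype and leukemic mice were far apart, and the 3 Eµ-TCL1 mice were almost equal. The part of *Zfp318* in the *Ighd* to *Ighm* ratio was not tested. The log2 fold change of *Zfp318* was -2.50 ± 0.23 in Eµ-MTCP1 (edgeR adjusted p = 0.000279) and -2.59 ± 0.24 in Eµ-TCL1 (adjusted p = 0.000190). *Ell2* and *Cstf2*, which favour the secreted form in plasma cells, had log2 fold changes of 0.71 ± 0.34 and 0.39 ± 0.25 in Eµ-MTCP1 and 0.83 ± 0.34 and 0.54 ± 0.25 in Eµ-TCL1, with adjusted p from 0.161 to 0.370. The median log2 fold change of the 15 genes was -0.18 and -0.17, beside -0.02 and -0.01 over all tested genes.

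**Figure D4:**
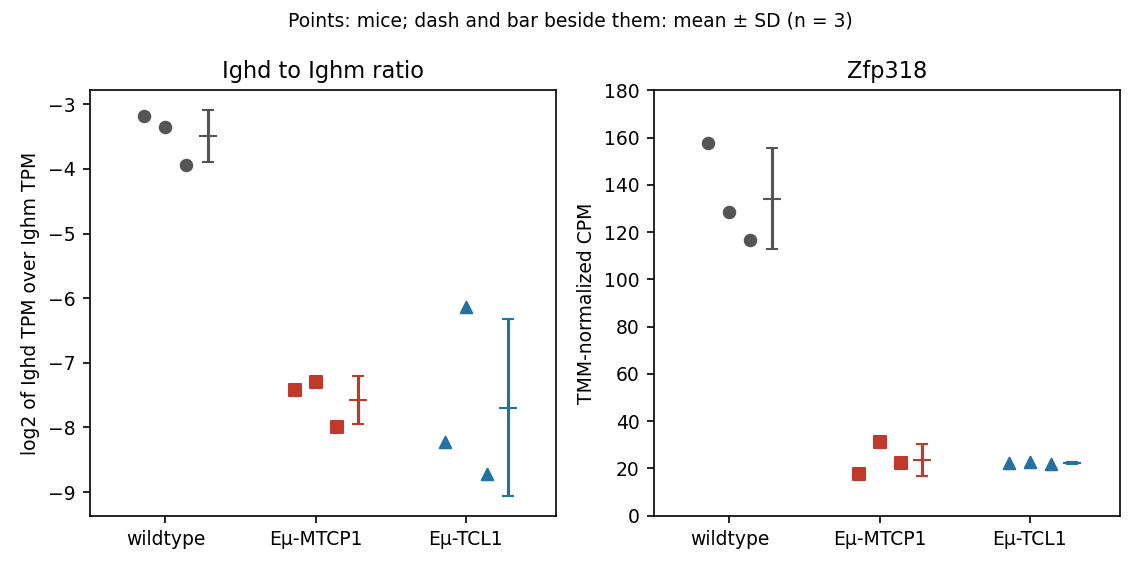
Log2 of *Ighd* TPM over *Ighm* TPM (left) and TMM-normalized CPM of *Zfp318* (right) in each mouse, with mean ± SD beside the points (n = 3). All leukemias lie below all wildtype mice in both panels, and a link between the panels was not tested.

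Secreted and membrane transcripts were examined next. For *Ighm*, the secreted form was at 3993, 3989 and 6307 TPM in Z2754, Z2755 and Z2785 and the membrane form at 2766, 2617 and 2332 TPM. The secreted form was at 8581, 14497 and 4794 TPM in Z2551, Z2606 and Z2641 and at 11863, 1468 and 7602 TPM in B4376, B4437 and C1594. The membrane form was at 2399 to 4501 TPM in the 6 leukemias, 5 of which lay above every wildtype mouse. Its log2 fold changes of 0.91 ± 0.25 and 0.71 ± 0.25 did not pass (edgeR over all transcripts, adjusted p = 0.1004 and 0.197), nor did those of the secreted form, 1.32 ± 0.73 and 0.83 ± 0.72 (adjusted p = 0.410 and 0.664). Expressed as a share, the secreted form made up 59.1, 60.4 and 73.0% of *Ighm* in wildtype mice, 71.7, 81.8 and 51.6% in the Eµ-MTCP1 mice and 83.2, 28.7 and 64.5% in the Eµ-TCL1 mice. The 3 groups overlapped, the mean difference was -0.576 percentage points (exact permutation p = 0.988), and the leukemias spread from 28.7 to 83.2%. *Jchain*, the joining chain of secreted IgM and IgA, was at 31.5 CPM in B4437, which had the lowest secreted share, and at 1708 and 2599.8 CPM in B4376 and Z2606, which had the highest shares. It was at 834, 247 and 167 CPM in Z2551, Z2641 and C1594 and at 738, 678 and 1155 CPM in wildtype, so C1594 was below every wildtype mouse although its secreted share was within their range. Its log2 fold changes of 0.52 ± 1.13 and -0.43 ± 1.13 did not pass (edgeR adjusted p = 0.808 and 0.852).

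For *Igha* the secreted form fell in both models and the membrane form did not pass the test. The secreted form was at 615, 1149 and 893 TPM in Z2754, Z2755 and Z2785, at 7.86, 36.4 and 16 TPM in Z2551, Z2606 and Z2641, and at 9.10, 8.52 and 2.41 TPM in B4376, B4437 and C1594. The membrane form, whose last 197 coding bases are shown above, was at 2.61, 14.8 and 6.86 TPM in wildtype, 14.3, 11.5 and 3.47 TPM in Eµ-MTCP1 and 9.0, 5.26 and 6.06 TPM in Eµ-TCL1 mice. The leukemias thus lay within the wildtype range for the membrane form and far below it for the secreted form. In a fit of edgeR over all 17430 transcripts that passed the filter, the secreted form had a log2 fold change of -5.07 ± 0.72 in Eµ-MTCP1 (adjusted p = 0.0106) and -6.81 ± 0.79 in Eµ-TCL1 (adjusted p = 0.00473). The membrane form had 0.69 ± 0.67 (adjusted p = 0.693) and 0.03 ± 0.67 (adjusted p = 0.994). The secreted share of *Igha* was 98.7 to 99.6% in wildtype, 35.4 to 82.2% in the Eµ-MTCP1 group and 28.5 to 61.8% in Eµ-TCL1 mice, a difference of -43.5 percentage points (exact permutation p = 0.0238, adjusted p = 0.0476). Without any 1 of the wildtype mice that p was 0.0714, where 0.0357 is the smallest possible, so the call was lost. On the standard reference, which holds the full transcripts, the difference was -36.9 percentage points with an exact permutation p of 0.0595, and the membrane form had log2 fold changes of 1.25 ± 0.66 and 0.67 ± 0.65 that did not pass (edgeR adjusted p = 0.431 and 0.739). There the membrane form was at 17.5, 7.6 and 2.33 TPM in Z2551, Z2606 and Z2641 and at 6.83, 3.73 and 9.79 TPM in B4376, B4437 and C1594, with 3.88 to 5.88 TPM in wildtype, so 4 of the 6 leukemias lay above every wildtype mouse and the others below.

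*Ighg3* showed a similar order of values in Eµ-TCL1. Its secreted form was at 236, 472 and 697 TPM in Z2754, Z2755 and Z2785 and at 24.3, 26.5 and 53.0 TPM in B4376, B4437 and C1594, while its membrane form was at 10.9, 15.1 and 19.4 TPM in wildtype and at 22.3, 11.7 and 9.67 TPM in those Eµ-TCL1 mice. In the Eµ-MTCP1 mice Z2551, Z2606 and Z2641 the secreted form was at 30, 225 and 1.32 TPM and the membrane form at 4.45, 9.68 and 0.410 TPM. Neither form passed in either model (edgeR adjusted p from 0.241 to 0.957), and the secreted share differed by -19 percentage points (exact permutation p = 0.0714, adjusted p = 0.107). It was 95.6 to 97.3% in wildtype, 76.4 to 95.9% in the Eµ-MTCP1 group and 52.2 to 84.6% in Eµ-TCL1 mice.

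For *Ighd* the membrane form held almost all of the gene in every mouse, and the secreted share was 3.48 to 4.15% in wildtype and 1.44 to 9.71% in the leukemias (exact permutation p = 0.571). Its membrane form fell in both models, with log2 fold changes of -2.88 ± 0.48 and -3.46 ± 0.49 (edgeR adjusted p = 0.0182 and 0.0102). Over the 8 genes, 4 secreted and 2 membrane forms were called lower in Eµ-MTCP1, and 5 secreted and 3 membrane forms were in Eµ-TCL1, of 8 secreted and 7 membrane forms that passed the filter. Among all transcripts 1.34% and 1.33% were called lower. The membrane forms of *Ighg1*, *Ighg2b* and *Ighg2c* and the secreted form of *Ighe* passed the filter through wildtype alone, so they could only be found lower. The membrane form of *Ighe* had 0 reads in all 9 mice. The fit over transcripts, and the shares of *Igha*, *Ighg3* and *Ighd*, were added after the values were seen.

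**Figure D5:**
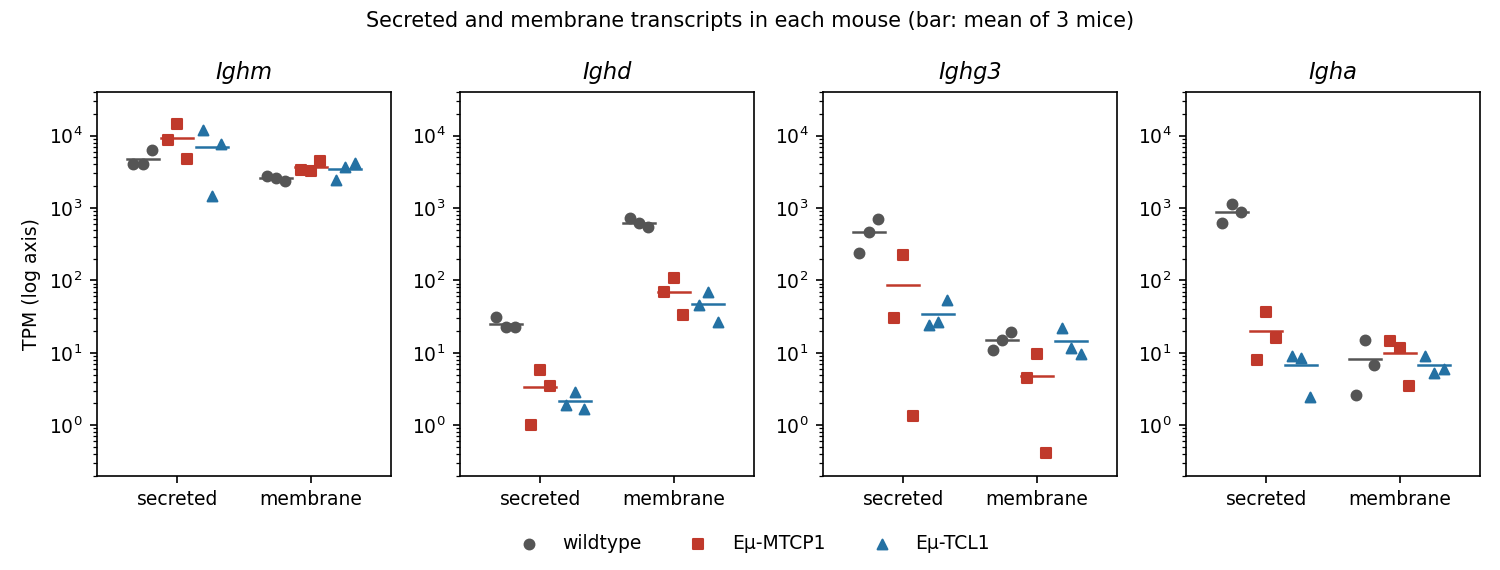
TPM of the secreted and the membrane transcript of *Ighm*, *Ighd*, *Ighg3* and *Igha* on a log axis, with 1 point per mouse and a bar for the mean of 3 mice. The membrane form of *Igha* overlaps between the 3 groups while its secreted form is far lower in the leukemias, and the secreted form of *Ighm* is spread widely among the leukemias.

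Genes of switch recombination were compared in the same fit. Of 34 listed genes 33 were tested, and 2 passed in each model (1 lower and 1 higher in Eµ-MTCP1, 2 higher in Eµ-TCL1), a share no higher than the 9.37% and 9.15% of all tested genes, with medians of -0.03 and 0.03. *Ung*, the glycosylase that removes uracil from DNA, did not pass (0.37 ± 0.62 and -0.29 ± 0.62, edgeR adjusted p = 0.746 and 0.816). *Hmces*, which protects abasic sites in DNA, was higher in both models (1.51 ± 0.31 and 1.19 ± 0.30, adjusted p = 0.0129 and 0.0359). *Nbn*, of the complex that senses DNA breaks, was lower in Eµ-MTCP1 (-1.39 ± 0.35, adjusted p = 0.0350) and did not pass in Eµ-TCL1 (-0.93 ± 0.35, adjusted p = 0.126). *Xrcc6*, the Ku70 subunit of end joining, was higher in Eµ-TCL1 (0.77 ± 0.17, adjusted p = 0.0187) and did not pass in Eµ-MTCP1 (0.56 ± 0.17, adjusted p = 0.0683).

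Signals and transcription factors that direct switching were compared next. Of 30 genes, 7 were lower and 1 higher in Eµ-MTCP1 and 7 were lower in Eµ-TCL1, where 3.94% and 4.08% of all tested genes were lower, and the medians were -0.63 and -0.47. Lower in both models were *Cd40*, the receptor for T-cell help (-1.74 ± 0.30 and -1.16 ± 0.30, edgeR adjusted p = 0.00562 and 0.0355), and *Il21r*, the IL-21 receptor (-2.12 ± 0.40 and -1.51 ± 0.39). So were both chains of the interferon-γ receptor, *Ifngr1* (-1.19 ± 0.20 and -1.03 ± 0.20) and *Ifngr2* (-1.24 ± 0.25 and -1.01 ± 0.25), whose signal directs switching to IgG2. *Bach2*, a repressor of plasma cell differentiation that B cells need for switching, was lower in both (-1.14 ± 0.20 and -2.19 ± 0.21, adjusted p = 0.00702 and 0.000255), and *Bcl6*, the factor of germinal centre B cells, likewise (-2.17 ± 0.42 and -2.69 ± 0.43, adjusted p = 0.00958 and 0.00347). *Smad2*, which relays TGF-β, the signal for IgA, was lower in Eµ-MTCP1 (-0.66 ± 0.18, adjusted p = 0.0450) and *Runx1* in Eµ-TCL1 (-1.18 ± 0.27, adjusted p = 0.0209). In the other model *Smad2* had -0.58 ± 0.18 (Eµ-TCL1, adjusted p = 0.0718) and *Runx1* had -0.815 ± 0.265 (Eµ-MTCP1, adjusted p = 0.087). *Tnfrsf13c*, the BAFF receptor, was higher in Eµ-MTCP1 (1.12 ± 0.28, adjusted p = 0.0328) and did not pass in Eµ-TCL1 (0.42 ± 0.28, adjusted p = 0.394). *Batf*, a transcription factor that B cells need for switching, did not pass (0.49 ± 0.38 and 0.46 ± 0.38, adjusted p = 0.448 and 0.490).

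Partners of the heavy chain in the receptor and in secretion numbered 10, of which 1 was lower and 1 higher in Eµ-MTCP1 and 1 higher in Eµ-TCL1, beside 9.37% and 9.15% of all tested genes in either direction, with medians of 0.40 and 0.20. *Cd79a* and *Cd79b*, the signalling chains of the receptor, had log2 fold changes of 0.30 ± 0.22 and 0.43 ± 0.24 in Eµ-MTCP1 and -0.06 ± 0.22 and 0.17 ± 0.24 in Eµ-TCL1, and did not pass. *Mzb1*, a chaperone for IgM in the endoplasmic reticulum, was higher in Eµ-MTCP1 (1.66 ± 0.44, edgeR adjusted p = 0.0427) and did not pass in Eµ-TCL1 (1.275 ± 0.439, adjusted p = 0.102). *Pigr*, the receptor that carries polymeric IgA and IgM across epithelia, was higher in Eµ-TCL1 (4.37 ± 0.95, adjusted p = 0.0169), at 7.32, 27.8 and 57.3 CPM against 0.758 to 2.6 CPM in wildtype. *Vpreb3* was lower in Eµ-MTCP1 (-2.93 ± 0.74, adjusted p = 0.0339) and did not pass in Eµ-TCL1 (-1.77 ± 0.70, adjusted p = 0.149). None of the 10 partners passed between the models.

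Marker lists that could move with the isotypes were read beside these results. The 9 plasma cell markers summed to 1169 to 1892 CPM in wildtype mice, to 982 to 4004 CPM in the Eµ-MTCP1 and to 649 to 2959 CPM in the Eµ-TCL1 group, and none was at 0 in any group. *Prdm1*, the plasma cell regulator, was higher in both models and *Mzb1* in Eµ-MTCP1, and no plasma cell marker was lower. Of all tested genes 5.43% and 5.07% were higher and 3.94% and 4.08% lower. The lowest sums of the models were below the lowest wildtype sum. The 7 germinal centre markers, of which 6 were tested, summed to 73.4 to 100.4 CPM in wildtype and 13.7 to 41.7 CPM in the leukemias, with *Bcl6* and *Gcsam* lower in both models. The 3 markers of follicular and marginal zone cells, *Fcer2a*, *Cr2* and *Ighd* itself, were lower in both models. The part of these cell types in the isotype values was not tested.

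The genes whose log2 CPM over the 9 libraries followed *Ighd* most closely, among 9015 with a mean of at least 5 CPM, were *Fcer2a* (Pearson r = 0.984), *Kmo* (0.984), *Btk* (0.974), *Prag1* (0.974) and *Igha* (0.967). Those that followed *Igha* were *Fcer2a* (0.989), *Bin1* (0.976), *Zfp608* (0.973), *Cnr2* (0.970) and *Ighg2b* (0.969). *Fcer2a* encodes CD23, the low-affinity IgE receptor of follicular B cells, and *Btk* the kinase downstream of the B-cell receptor. The 9 points fall into the wildtype and the leukemic mice, so each value also holds the contrast between them and is given as a description.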

How the data were processed

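Splenic B cells of 9 mice were examined, 3 Eµ-MTCP1, 3 Eµ-TCL1 and 3 wildtype, 1 library per mouse, grouped by the deposited labels. The labels name a preamplification (SMARTer v4) and both Nextera XT and TruSeq stranded library kits. The authors deposited Salmon (1.0.0) estimated counts and TPM values for each transcript, on a reference with human sequences (coding sequences only) and on a standard mouse reference of whole transcripts. Whole counts per gene were deposited by the authors; their processing notes name HISAT2 2.0.6 and featureCounts. Normalized log2 values of the authors, from DESeq2, were used only for the transgenes; their fold changes and p-values were not used.

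Estimated counts were summed per gene with GENCODE M21 (0.190 to 0.291% of reads fell on mouse transcripts outside it), rounded, and filtered by filterByExpr, which left 11247 genes. All 9 libraries entered 1 edgeR 4.0.16 quasi-likelihood fit (R 4.3.3, TMM). The SE is the log2 fold change over the square root of F. Shares and ratios per mouse were compared by two-sided exact permutation tests. Scripts were tested on simulated data. DESeq2 1.42.0 and other alternatives are given below. At 6464089 to 8053017 reads per library, 3 reads were taken as the floor. The members and lists were chosen with earlier results of these data known. Named were all 8 genes, listed genes with an adjusted p under 0.05 in either model, 9 listed genes whatever their values (1 of them is not reported here), and the 5 genes nearest in pattern to *Ighd* and to *Igha* (log2 CPM, prior count 2, variable segments left out). The intervals take reads as independent. Amplified reads are not independent molecules, so the intervals can be too narrow even for counting error. Replicates of a group are separate mice.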

Additional observations from a re-analysis of the deposited data

How the results depend on the processing

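The 3 counts of called genes stayed within 1.5 times under other size factors, library size alone, TMM without immunoglobulin genes, no filter, length offsets, the standard reference and the whole counts per gene. The switched share and the *Ighd* to *Ighm* ratio, which do not depend on size factors, kept their direction and their side of the threshold on the standard reference and in the whole counts (for the ratio, a ratio of reads), the share also in TPM and without *Igha*. With length offsets 5 genes in place of 6 were called in Eµ-MTCP1, since *Ighe* did not pass. Library size alone moved the median of all genes to -0.26 and -0.15 (log2) in Eµ-MTCP1 and Eµ-TCL1 against wildtype. With DESeq2 the direct comparison of the models gave 1 called gene in place of 0. Leaving out each library in turn gave 4 to 6 called genes for Eµ-MTCP1 against wildtype, 5 to 7 for Eµ-TCL1 against wildtype and 0 between the models. The switched share then differed by -25.8 to -21.4 percentage points and the log2 ratio of *Ighd* to *Ighm* by -4.45 to -3.93. The secreted share of *Ighm*, which did not differ by the test, changed sign: it was 0.0951 percentage points higher in the leukemias on the standard reference and ran from -4.50 to 6.39 over the left-out libraries. *Ighg3* turned from lower to higher in Eµ-TCL1 against Eµ-MTCP1 without Eµ-MTCP1 mouse Z2606, from a log2 difference of -0.89 to 1.42, uncalled in both; over all left-out libraries it ran from -1.48 to 1.42. The causes were not tested. The secreted share of *Igha* passed with all mice (exact permutation p = 0.0238) but not without any 1 of the wildtype mice (exact permutation p = 0.0714 each). Over all genes, calls fell from 1054 to 531 (Eµ-MTCP1) and from 1029 to 520 (Eµ-TCL1) without wildtype mouse Z2754, to 563 and 553 without Z2755, the library of the other lane, to 603 (Eµ-MTCP1) without Z2551 and to 662 (Eµ-TCL1) without C1594. DESeq2 called 1657 and 1697. Between the models 5 genes became 74 with DESeq2, 15 without a filter, and 8 on the standard reference or without C1594. On the standard reference 1 and 2 membrane forms were called in place of 2 and 3, and 3 secreted forms in place of 4 in Eµ-MTCP1, where that of *Ighg2c* did not pass (edgeR adjusted p = 0.0625). Depth limits *Ighe* in all mice, *Ighg1* in Eµ-TCL1, and *Ighg2c* in Z2641 and B4376. No paired analysis was possible because the replicate numbers do not pair mice.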
